A study of Homo sapiens with 24 samples.

Results

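The genes described here were 10 negative feedback genes of mitogen-activated protein kinase (MAPK) signaling, *DUSP1*, *DUSP4*, *DUSP5*, *DUSP6*, *DUSP10*, *SPRY1*, *SPRY2*, *SPRY4*, *SPRED1* and *SPRED2*, measured on 24 one-colour Agilent SurePrint G3 microarrays of 2 human hepatocellular carcinoma (HCC) cell lines. They were taken by name from the 32614 genes that the arrays' probes name, through the accession of each probe, and were covered by 12 probes. They were chosen by their change with galunisertib alone against control, which is therefore given below as a description without a test. PLC/PRF/5 and SNU-449 are established HCC lines, and each was cultured in 3 independent experiments, starved of serum overnight and then kept for 16 h in 1 of 4 conditions. These were no addition (control), TGFβ1 at 1 ng/mL, galunisertib at 10 µM, or galunisertib and TGFβ1 together at the same doses (called both). Galunisertib is a small-molecule inhibitor of the kinase of the type I TGFβ receptor. Control cells, like all others, were serum-starved, so every level below refers to starved cells of 2 lines and not to liver tissue.

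The ERK branch of MAPK signaling runs from receptor tyrosine kinases through RAS, RAF and MEK to the kinases ERK1 and ERK2, and it induces its own inhibitors. The DUSP proteins studied here are dual-specificity phosphatases that remove phosphates from MAPKs. DUSP6 acts in the cytoplasm on ERK, DUSP5 acts in the nucleus on ERK, DUSP4 and DUSP1 are nuclear phosphatases with wider substrates, and DUSP10 acts mainly on the p38 and JNK kinases. Sprouty proteins (SPRY1, SPRY2 and SPRY4) and their relatives SPRED1 and SPRED2 act upstream, on the path from the receptor to RAS and RAF, and SPRED1 brings the RAS inhibitor neurofibromin to the membrane. Since ERK activity raises the transcription of many of these genes, their mRNAs are widely used as a readout of ERK output. TGFβ signals chiefly through SMAD proteins, and it can also act on MAPKs through SMAD-independent routes.

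RefSeq promoters (GRCh38.p14) were at hand for 8 of the 10 genes, 13 promoters in all, and 4 of them are shown in full for the 250 bases before the start site. *DUSP6* and *SPRY1* are shown because both passed the test with galunisertib under TGFβ1 in each line, *SPRY4* because it passed in PLC/PRF/5 and not in SNU-449, and *DUSP1* because it passed in neither. They lie at chr12:89352502-89352751 (minus strand, *DUSP6*), chr4:123396545-123396794 (plus strand, the first of 2 *SPRY1* promoters), chr5:142324248-142324497 (minus strand, *SPRY4*) and chr5:172771196-172771445 (minus strand, *DUSP1*), and are written 5′ to 3′ on the strand of the gene. Capitals mark a motif match.
DUSP6: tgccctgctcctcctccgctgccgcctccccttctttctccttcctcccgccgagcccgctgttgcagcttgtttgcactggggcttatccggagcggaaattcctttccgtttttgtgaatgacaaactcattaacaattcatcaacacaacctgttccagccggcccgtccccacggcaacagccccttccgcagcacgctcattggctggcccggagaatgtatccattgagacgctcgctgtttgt
SPRY1: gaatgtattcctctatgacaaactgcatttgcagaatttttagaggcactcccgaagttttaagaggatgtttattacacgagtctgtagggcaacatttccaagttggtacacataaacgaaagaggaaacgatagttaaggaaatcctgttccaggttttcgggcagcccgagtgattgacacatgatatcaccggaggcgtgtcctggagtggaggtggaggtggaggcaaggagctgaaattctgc
SPRY4: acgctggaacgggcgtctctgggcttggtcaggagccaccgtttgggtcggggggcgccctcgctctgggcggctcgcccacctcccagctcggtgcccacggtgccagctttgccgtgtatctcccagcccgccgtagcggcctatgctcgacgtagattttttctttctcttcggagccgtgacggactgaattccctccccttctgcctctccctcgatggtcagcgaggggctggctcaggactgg
DUSP1: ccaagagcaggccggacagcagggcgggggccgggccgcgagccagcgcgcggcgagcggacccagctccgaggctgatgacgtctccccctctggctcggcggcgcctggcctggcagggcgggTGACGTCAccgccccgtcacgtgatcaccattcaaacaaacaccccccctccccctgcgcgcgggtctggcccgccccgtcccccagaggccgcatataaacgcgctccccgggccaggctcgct

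The letters of 5 motifs were searched on both strands of the 13 promoters, with a single match. It was the cyclic AMP response element, TGACGTCA, which begins 125 bases before the start of *DUSP1* and is present in 1.65% of 35116 RefSeq promoters of the same length. No member promoter held the AP-1 element TGANTCA (6.57% of all promoters), the ETS element CCGGAAGT (3.42%), the SMAD palindrome GTCTAGAC (0.182%) or the CArG box (1.16%). A match or its absence in this window says nothing of which factor acts there.

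Levels are given as log2 of the background-corrected signal over the 75th percentile of the array, so that 0 is the 75th percentile and 1 unit is a 2-fold difference, and levels of different genes are not compared because probes differ in brightness. All 10 genes passed the filter on dim probes, which kept 16865 genes in PLC/PRF/5 and 16227 in SNU-449. A gene is said to have changed where limma's adjusted p over all genes tested in the fit was below 0.05. The 75th percentile of the arrays lay between 145 and 262 signal units, the lowest being that of PLC/PRF/5 control replicate 1, and 41.6 to 49.6% of probes were well above background. Of the marker genes read against the labels, all 6 hepatocyte markers were well above background on all 12 PLC/PRF/5 arrays, whereas in SNU-449 3 of 6 were, and *APOB* and *HNF4A* were on none. Those 3, *APOA1*, *TTR* and *SERPINA1*, lay between -3.35 and -2.11 in SNU-449. All 6 were lower in untreated SNU-449 than in PLC/PRF/5, with a median difference of -7.50, beside 34.1% of all genes that were lower. The 4 epithelial markers were lower in untreated SNU-449 than in PLC/PRF/5, 3 of 4 mesenchymal markers were higher there, and 1 was lower. Of 4 leukocyte and endothelial markers, *CD14* was well above background on 12 of 12 arrays in each line, *PTPRC* on 12 in PLC/PRF/5 and 11 in SNU-449, *CDH5* on 8 and 5 and *PECAM1* on 0 in both, with levels between -4.13 and -1.99, and their part in the results was not tested. With galunisertib added to TGFβ1 the direct TGFβ target *SKIL* fell in both lines, with a change of -2.06 in PLC/PRF/5 and -1.48 in SNU-449. Each replicate number is 1 slide, and on each slide the arrays with TGFβ1 lay in one row and those without in the other, while the arrays with galunisertib lay in columns 2 (PLC/PRF/5) and 4 (SNU-449) and those without in columns 1 and 3. Position on the slide therefore cannot be told apart from TGFβ1, galunisertib or the line. With 1 spot for each probe except that of *DUSP1* (10 spots), a value on an array rests on a single spot, and 1 such spot of *DUSP4* is described below.

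**Figure D1:**
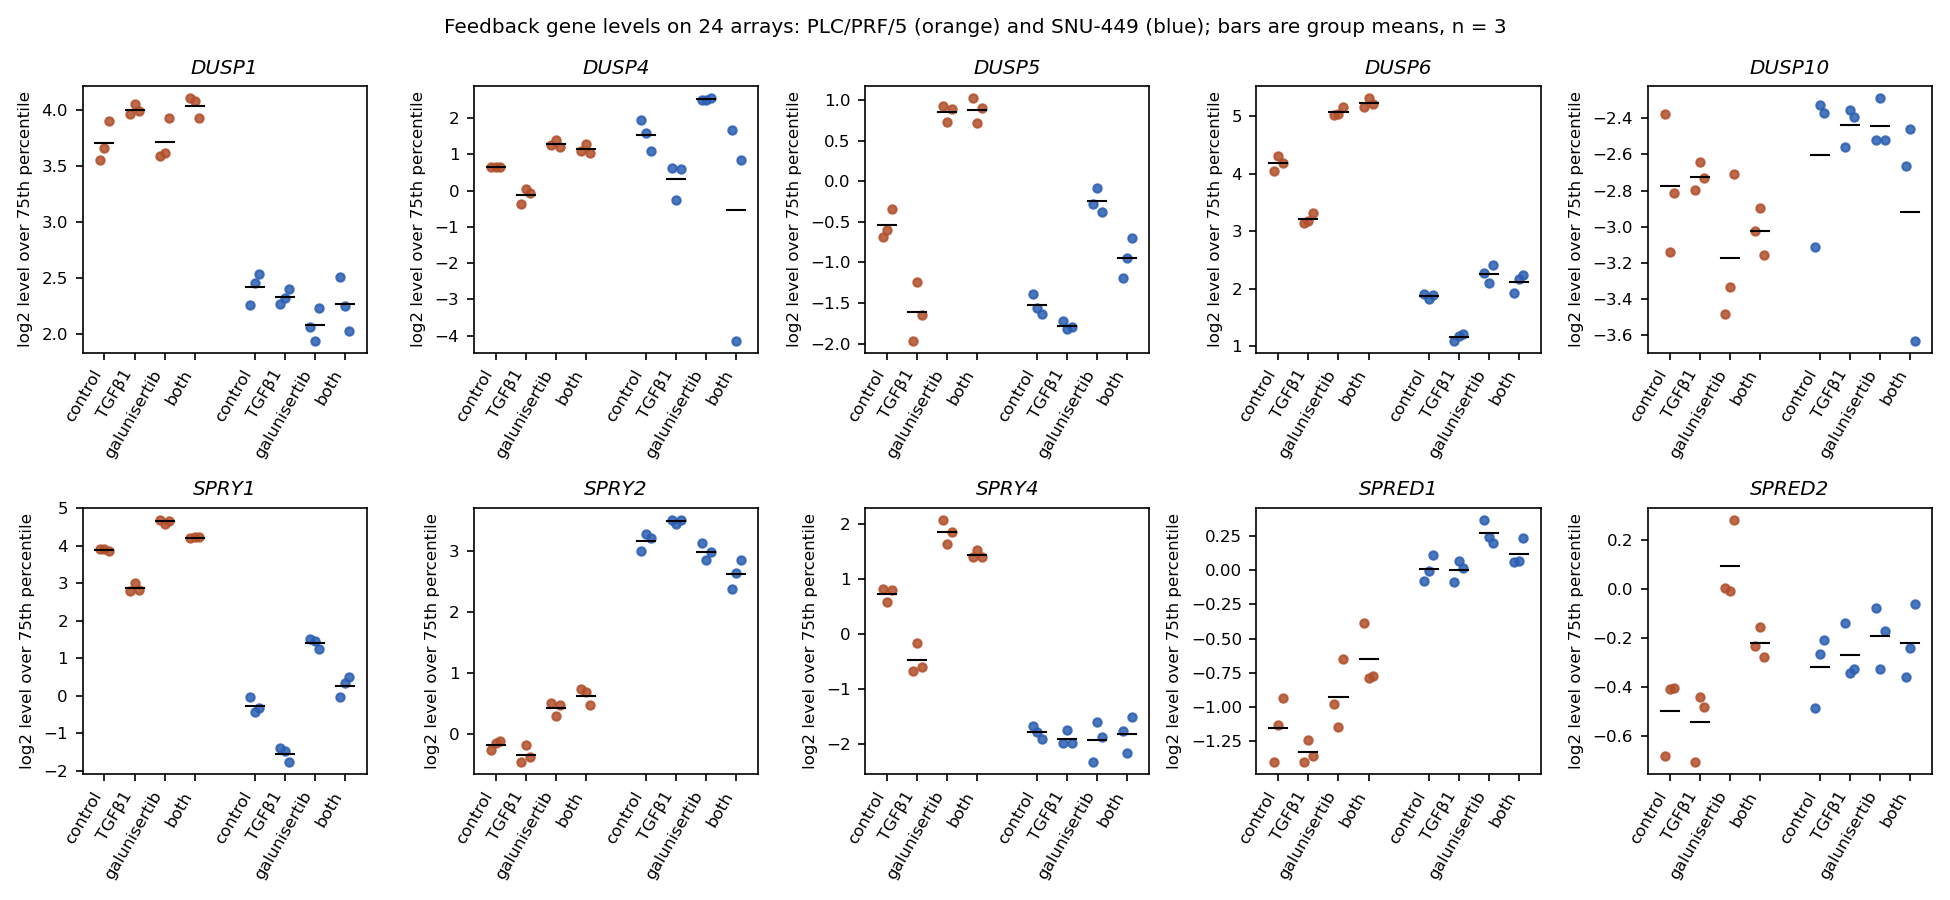
Level of each gene (y axis, log2 signal over the 75th percentile of the array) in the 4 conditions of PLC/PRF/5 (left, orange) and SNU-449 (right, blue), with 3 arrays in each group as points and their mean as a bar. *DUSP5* reached 0.72 to 1.03 in the 6 PLC/PRF/5 arrays with galunisertib, above all other arrays, and *DUSP4* on 1 SNU-449 array with both agents lay at the floor of -4.13.

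*DUSP5* encodes the nuclear ERK phosphatase, and its levels followed galunisertib in both lines. In PLC/PRF/5 it read -0.69, -0.60 and -0.34 in control cells and 0.92, 0.73 and 0.90 with galunisertib, a difference of 1.39 (2.63-fold), which was the third highest of 16865 genes. In SNU-449 it read -1.39, -1.56 and -1.63 in control cells and -0.28, -0.08 and -0.38 with galunisertib. The difference there was 1.28 (2.43-fold), at rank 51 of 16227 genes. In each line the 3 treated arrays lay above the 3 controls, as they did for 19.2% of all genes in PLC/PRF/5 and 20.5% in SNU-449. A rise above 2-fold was seen for 0.184% of the genes in PLC/PRF/5 and 0.826% in SNU-449, and as this contrast chose the genes nothing further is read from it.

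The other phosphatases differed from *DUSP5* in that description. With galunisertib alone *DUSP6* was higher by 0.90 in PLC/PRF/5 and by 0.39 in SNU-449, and *DUSP4* by 0.63 and 0.98. *DUSP1* differed by 0.0045 and -0.34, and *DUSP10* by -0.40 and 0.16. Among the Sprouty genes *SPRY1* was higher by 0.75 in PLC/PRF/5 and by 1.68 in SNU-449, the latter the largest difference of the 10 genes in that line. *SPRY4* was higher by 1.13 in PLC/PRF/5 and differed by -0.14 in SNU-449, and *SPRY2* was higher by 0.60 and differed by -0.18. *SPRED1* differed by 0.23 and 0.26, and *SPRED2* by 0.59 and 0.13. The median of the 10 genes was 0.61 in PLC/PRF/5 and 0.21 in SNU-449, beside 0.045 and 0.087 for all genes. As the genes were chosen by this contrast, the gap between these medians is no evidence of a response.

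The contrast that chose the genes did not use the arrays with TGFβ1, which asked whether galunisertib acted on the genes in the presence of TGFβ1. The genes were, however, chosen with earlier results of these data known, so this comparison is not an independent check. In PLC/PRF/5, 8 of the 10 genes rose when galunisertib was added to TGFβ1, and none fell. In that comparison 25.5% of all genes tested rose and 38.9% changed in either direction. The median change of the 10 genes was 1.12, beside 0.056 over all genes. *DUSP5* stood at -1.96, -1.24 and -1.65 with TGFβ1 and at 1.03, 0.72 and 0.91 with both, so that the groups were far apart on every slide. Its change of 2.50 (standard error, SE, 0.17), or 5.66-fold with a 95% interval of 4.38 to 7.32, was the third largest rise of 16865 genes (limma, adjusted p = 3.9e-06).

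*DUSP6*, the cytoplasmic ERK phosphatase, rose in PLC/PRF/5 from 3.14, 3.17 and 3.33 with TGFβ1 to 5.17, 5.32 and 5.22 with both. The change was 2.02 (SE 0.089, limma, adjusted p = 3.3e-07), or 4.06-fold. *DUSP4* rose there from -0.36, 0.04 and -0.07 to 1.09, 1.29 and 1.04, a change of 1.27 (SE 0.11, limma, adjusted p = 1.9e-05). These 3 phosphatase genes thus rose on all 3 slides, while the other 2 did not pass the test. *DUSP1*, the phosphatase gene of the immediate early response, read 3.96, 4.06 and 3.99 with TGFβ1 and 4.11, 4.08 and 3.93 with both, and the 95% interval of its change was -0.22 to 0.29. *DUSP10*, measured close to background, had a change of -0.30 with an interval of -0.78 to 0.17.

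All 3 Sprouty genes rose in PLC/PRF/5. *SPRY4* read -0.67, -0.16 and -0.60 with TGFβ1 and 1.41, 1.53 and 1.40 with both, a change of 1.92 (SE 0.15, limma, adjusted p = 9.2e-06). *SPRY1* read 2.81, 3.00 and 2.82 and then 4.20, 4.23 and 4.23, a change of 1.34 (SE 0.071, limma, adjusted p = 9.3e-07). *SPRY2* read -0.46, -0.18 and -0.37 and then 0.73, 0.69 and 0.47, a change of 0.97 (SE 0.10, limma, adjusted p = 7.0e-05). In none of these 3 genes did the groups overlap, and for 35.5% of all genes in this comparison the arrays with both agents lay above those with TGFβ1. The *SPRY4* values come from its brighter probe, and the dimmer probe, designed on another transcript, had a change of 0.038 in the same comparison. For *SPRY1* the second probe had a change of 1.71.

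The SPRED genes, which act on RAS and RAF, rose less in PLC/PRF/5. *SPRED1* changed by 0.69 (SE 0.16, limma, adjusted p = 0.0065), from -1.40, -1.24 and -1.35 to -0.38, -0.78 and -0.77. *SPRED2* changed by 0.32 (SE 0.11, limma, adjusted p = 0.045), and it no longer passed when any 1 of the 6 arrays compared was left out (adjusted p between 0.052 and 0.17).

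In SNU-449, galunisertib added to TGFβ1 changed 4 of the 10 genes, 3 upward and 1 downward. Among all genes tested there, 17.1% changed, 9.77% upward and 7.31% downward, and the median of the 10 genes was 0.068 beside 0.011 over all genes. *SPRY1* had the largest change, from -1.40, -1.47 and -1.77 with TGFβ1 to -0.03, 0.35 and 0.49 with both. It came to 1.82 (SE 0.17, limma, adjusted p = 5.2e-05), or 3.52-fold, and the second *SPRY1* probe gave 3.02. *DUSP6* rose from 1.10, 1.17 and 1.21 to 1.93, 2.17 and 2.23, a change of 0.95 (SE 0.11, limma, adjusted p = 1.8e-04). *DUSP5* rose from -1.73, -1.82 and -1.80 to -1.20, -0.94 and -0.70, a change of 0.83 (SE 0.13, limma, adjusted p = 0.0017), or 1.78-fold, and after scaling to the array median it was 0.67 and no longer passed (limma, adjusted p = 0.054). In all 3 genes the arrays with both agents lay above those with TGFβ1, as they did for 24.1% of all genes.

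*SPRY2* moved the other way in SNU-449. It read 3.51, 3.45 and 3.52 with TGFβ1 and 2.38, 2.65 and 2.85 with both, a change of -0.87 (SE 0.13, limma, adjusted p = 0.0012). The groups did not overlap, the arrays with both agents lying below as for 19.4% of all genes, and the within-slide differences were -1.13, -0.80 and -0.67. *SPRY4* had a change of 0.085 with a 95% interval of -0.36 to 0.53, *SPRED1* one of 0.12 (-0.081 to 0.32) and *SPRED2* one of 0.050 (-0.21 to 0.31). *DUSP1* had a change of -0.068 (-0.36 to 0.23) and *DUSP10* one of -0.48 (-1.13 to 0.17).

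*DUSP4* could not be read in SNU-449 with both agents without regard to 1 spot. On replicate 2 its single spot gave 2.07% of the 75th percentile and was not well above background, while the other 2 arrays of the group read 1.66 and 0.86. A *DUSP1* spot 2 rows away on the same array gave a signal below 0 and was left out as an outlier, whereas the other 9 *DUSP1* spots there gave at least 769 units. With the *DUSP4* spot the change was -0.85 (95% interval -3.44 to 1.74), and without it 0.94 (limma, adjusted p = 0.091), so that the direction turned on this spot. The spot also widened the error of *DUSP4* in the other SNU-449 comparisons. The change with TGFβ1 against control, from 1.93, 1.58 and 1.08 to 0.62, -0.27 and 0.59, was -1.22 either way, but its adjusted p was 0.60 with the spot and 0.033 without it (limma).

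**Figure D2:**
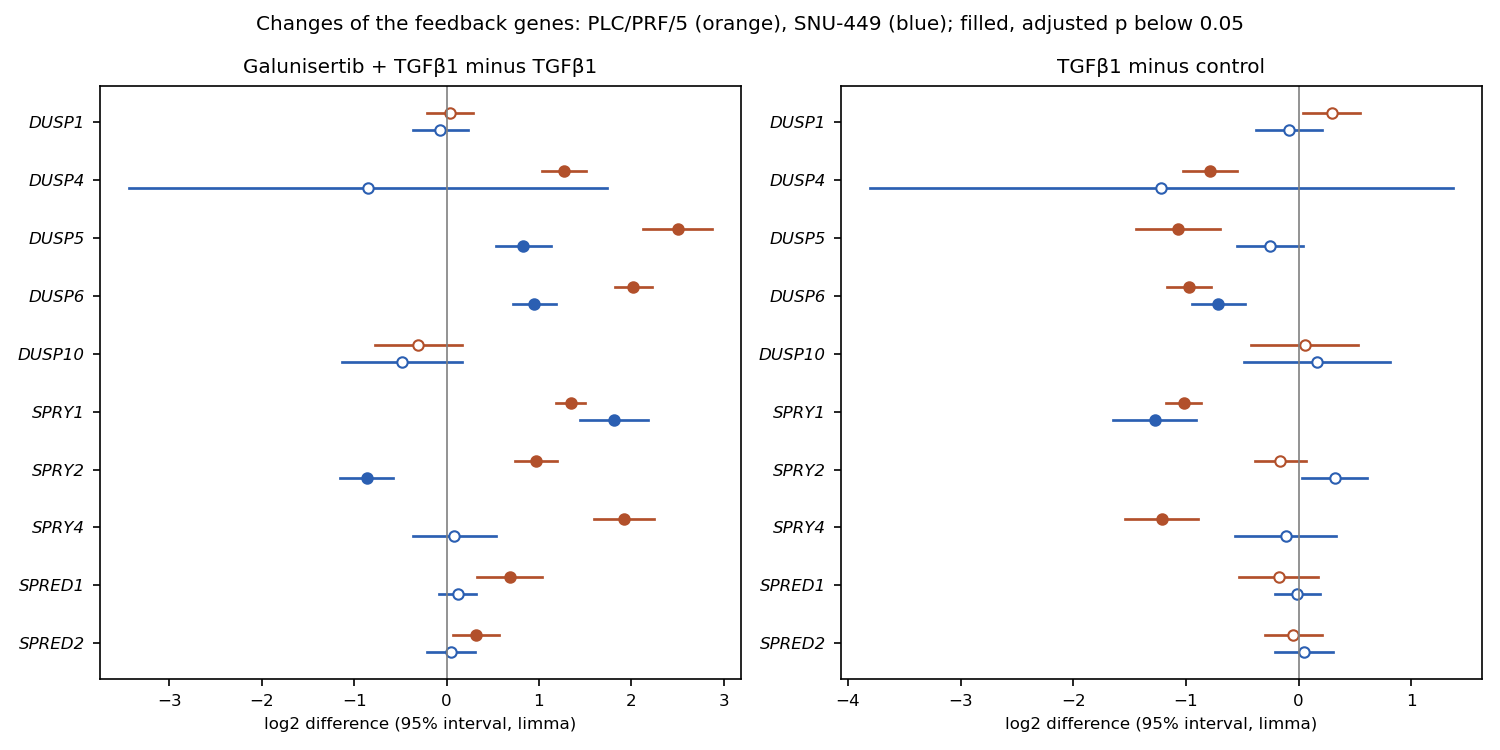
Change of each gene on the log2 scale (x axis) when galunisertib was added to TGFβ1 (left) and when TGFβ1 was added to control cells (right), in PLC/PRF/5 (orange) and SNU-449 (blue), with the 95% interval of the limma fit and filled points where the adjusted p was below 0.05. *DUSP5*, *DUSP6* and *SPRY1* rose in both lines on the left (*DUSP5* in SNU-449 not after scaling to the array median), *SPRY2* has opposite signs in the 2 lines (0.97 and -0.87), and the long blue bar is *DUSP4* with its faint spot.

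TGFβ1 alone was set against control to ask whether the ligand acted on the same genes. This comparison shares its control arrays with the contrast that chose the genes and its TGFβ1 arrays with the comparison above, so that it is not a separate piece of evidence. In PLC/PRF/5, 5 of the 10 genes fell and none rose, where 7.12% of all genes fell and 13.3% changed. *SPRY4* fell by 1.21 (SE 0.15, limma, adjusted p = 5.0e-04), its control arrays reading 0.82, 0.58 and 0.81. *DUSP5* fell by 1.07 (SE 0.17, limma, adjusted p = 0.0023), *SPRY1* by 1.02 (SE 0.071, limma, adjusted p = 1.3e-05) and *DUSP6* by 0.97 (SE 0.089, limma, adjusted p = 8.6e-05). *DUSP4* fell by 0.78 (SE 0.11, limma, adjusted p = 0.0012). For these 5 genes the TGFβ1 arrays lay below the control arrays, as they did for 22% of all genes. Without scaling between arrays *SPRY4* alone of the 5 passed, and the other 4 had changes of -0.53 to -0.82. With the methods' t-test, which the study's methods name for calling genes, *DUSP5* did not pass (adjusted p = 0.073). The second *SPRY4* probe had a change of -0.27.

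In SNU-449, 2 of the 10 genes fell with TGFβ1, where 4.74% of all genes fell and 10.4% changed. *SPRY1* went from -0.03, -0.43 and -0.34 in control cells to -1.40, -1.47 and -1.77, a change of -1.28 (SE 0.17, limma, adjusted p = 8.2e-04). *DUSP6* went from 1.90, 1.81 and 1.90 to 1.10, 1.17 and 1.21, a change of -0.71 (SE 0.11, limma, adjusted p = 0.0018), which after scaling to the array median was -0.61 and did not pass (limma, adjusted p = 0.12). In both genes the TGFβ1 arrays lay below the control arrays, as for 18% of all genes. *DUSP5* had a change of -0.25 (95% interval -0.55 to 0.041) and *SPRY2* one of 0.32 (limma, adjusted p = 0.16).

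The groups with and without TGFβ1 in the presence of galunisertib asked what the ligand did once its receptor kinase was inhibited. The galunisertib arrays are among those that chose the genes, so this comparison is not independent of the choice. In PLC/PRF/5, *SPRY1* was the single gene that passed, where 8.32% of all genes changed and 4.84% fell. It read 4.70, 4.59 and 4.66 with galunisertib and 4.20, 4.23 and 4.23 with both, a change of -0.43 (SE 0.071, limma, adjusted p = 0.013), and the second *SPRY1* probe had 0.079. It did not pass in 7 alternatives other than the stricter limits, among them the mean of both probes (-0.18, limma, adjusted p = 0.15). *DUSP5* had a change of 0.036 there (95% interval -0.33 to 0.41) and *DUSP6* one of 0.15 (-0.043 to 0.35). In SNU-449, where 1.89% of all genes changed and 0.961% fell, *SPRY1* fell by 1.14 (SE 0.17, limma, adjusted p = 0.0096), from 1.53, 1.47 and 1.24 to -0.03, 0.35 and 0.49. *DUSP5* fell by 0.70 (SE 0.13, limma, adjusted p = 0.029), but with the slide as a replicate block it did not pass (limma, adjusted p = 0.069). Nor did it pass with no scaling or array median scaling (limma, adjusted p = 0.11 each), with no filter on dim probes or the percentile over detected probes (0.060 each), with only the compared groups in the fit (0.25), with the methods' t-test (0.30), or without galunisertib replicate 1 or 2 or replicate 1 or 2 of both. *SPRY1* in SNU-449 did not pass with only the compared groups (limma, adjusted p = 0.11) or with the methods' t-test (adjusted p = 0.24). In SNU-449 these settings called 2 of 15459 and 0 of 16143 genes in all, so they cannot tell whether *SPRY1* or *DUSP5* changed. The latter setting also called 0 of 16803 genes in PLC/PRF/5, where it likewise decides nothing about *SPRY1*. The difference between the lines in the effect of TGFβ1 under galunisertib was not tested.

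The captions of the study's figures name stricter limits, a change above 2-fold and a p below 0.001, and its supplementary lists of galunisertib genes name a looser p. Under the limits of the figures (here with the unadjusted p of limma), fewer of the genes passed. With galunisertib added to TGFβ1 these were 5 of 10 in PLC/PRF/5 (*DUSP4*, *DUSP5*, *DUSP6*, *SPRY1* and *SPRY4*), where 3.1% of all genes passed, and 1 in SNU-449 (*SPRY1*), where 3.82% did. With TGFβ1 alone they were 3 in PLC/PRF/5 (*DUSP5*, *SPRY1* and *SPRY4*; 1.1% of all genes) and 1 in SNU-449 (*SPRY1*; 2.34%). With TGFβ1 added to galunisertib they were 0 in PLC/PRF/5 (0.291% of all genes) and 1 in SNU-449 (*SPRY1*; 0.703%). Between the untreated lines 6 passed (34.3% of all genes), between the effects of galunisertib under TGFβ1 4 (6.19%) and between those of TGFβ1 1 (*SPRY4*; 2.28%).

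The untreated lines differed in 7 of the 10 genes, close to the 68.5% of all genes that differed between them. *SPRY1* differed most, reading 3.92, 3.90 and 3.87 in PLC/PRF/5 and -0.03, -0.43 and -0.34 in SNU-449, a difference of -4.17 for SNU-449 minus PLC/PRF/5 (SE 0.13, limma, adjusted p = 2.0e-16). *SPRY4* differed by -2.53, *DUSP6* by -2.31, *DUSP1* by -1.29 and *DUSP5* by -0.98, all lower in SNU-449, as 34.1% of all genes were. *SPRY2* was higher there by 3.35 and *SPRED1* by 1.16, beside 34.4% of all genes. Thus *SPRY1* and *SPRY2* had opposite orders in the 2 lines, and *SPRY4* in SNU-449 stayed between -2.34 and -1.52 in all 12 arrays. *DUSP4* was higher by 0.88 in SNU-449 (adjusted p = 0.38 with the faint spot and 0.0025 without it, limma).

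The order of the 8 groups by *DUSP5* level ran from PLC/PRF/5 with both (0.88 ± 0.15, SD, n = 3) and with galunisertib (0.85 ± 0.11) through SNU-449 with galunisertib (-0.25 ± 0.15), PLC/PRF/5 control (-0.54 ± 0.18), SNU-449 with both (-0.95 ± 0.25), SNU-449 control (-1.53 ± 0.13) and PLC/PRF/5 with TGFβ1 (-1.62 ± 0.36) to SNU-449 with TGFβ1 (-1.78 ± 0.047). Neighbours whose arrays overlapped were the first pair, SNU-449 with galunisertib and PLC/PRF/5 control, and the last 3 groups in sequence. For *DUSP6* every PLC/PRF/5 group lay above every SNU-449 group, from 5.23 ± 0.076 with both to 3.21 ± 0.098 with TGFβ1 in PLC/PRF/5 and from 2.26 ± 0.15 with galunisertib to 1.16 ± 0.057 with TGFβ1 in SNU-449. Within each line the groups with galunisertib and with both overlapped for *DUSP6*, and control and TGFβ1 stood apart below them.

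Whether the lines differed in their response was tested as the difference of the effects in all 24 arrays. The effect of galunisertib under TGFβ1 differed for 5 of the 10 genes, each more negative in SNU-449, where 29.1% of all genes differed and 16.8% were more negative in SNU-449. The differences were -1.84 for *SPRY4* (95% interval -2.38 to -1.30), -1.83 for *SPRY2* (-2.18 to -1.49), -1.67 for *DUSP5* (-2.13 to -1.21), -1.07 for *DUSP6* (-1.35 to -0.79) and -0.56 for *SPRED1* (-0.96 to -0.17), with limma's adjusted p from 1.8e-07 for *SPRY2* to 0.029 for *SPRED1*. The *SPRED1* difference did not pass without PLC/PRF/5 TGFβ1 replicate 1 or 3, PLC/PRF/5 both replicate 1, SNU-449 TGFβ1 replicate 2 or 3, or SNU-449 both replicate 1 or 2. Of these, *SPRY2* alone changed in opposite directions, while *DUSP5* and *DUSP6* had smaller rises in SNU-449, that of *DUSP5* not passing after array median scaling. For *SPRY4* the second probe gave a difference of -0.028. For *SPRY1* the difference was 0.47 (0.094 to 0.85, limma, adjusted p = 0.057), more positive in SNU-449, and 1.31 with its second probe. It passed with the mean of its probes (0.89, limma, adjusted p = 0.0013) and with the percentile over detected probes (0.68, limma, adjusted p = 0.012). It also passed without SNU-449 TGFβ1 replicate 1 or SNU-449 both replicate 1, and did not pass in 21 of 25 alternatives. The effect of TGFβ1 alone differed for 2 genes, *SPRY4* by 1.10 (0.56 to 1.64, limma, adjusted p = 0.0093) and *DUSP5* by 0.82 (0.36 to 1.28, limma, adjusted p = 0.023), where 8.59% of all genes differed and 4.24% were more positive in SNU-449. In both the change was more negative in PLC/PRF/5. The *SPRY4* difference was 0.40 with its second probe, 0.75 with the mean of its probes (limma, adjusted p = 0.093) and 0.98 without scaling (limma, adjusted p = 0.16), and with the mean of probes *SPRY1* passed at -0.69 (limma, adjusted p = 0.022). The *DUSP5* difference no longer passed when any 1 of 5 arrays was left out.

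**Figure D3:**
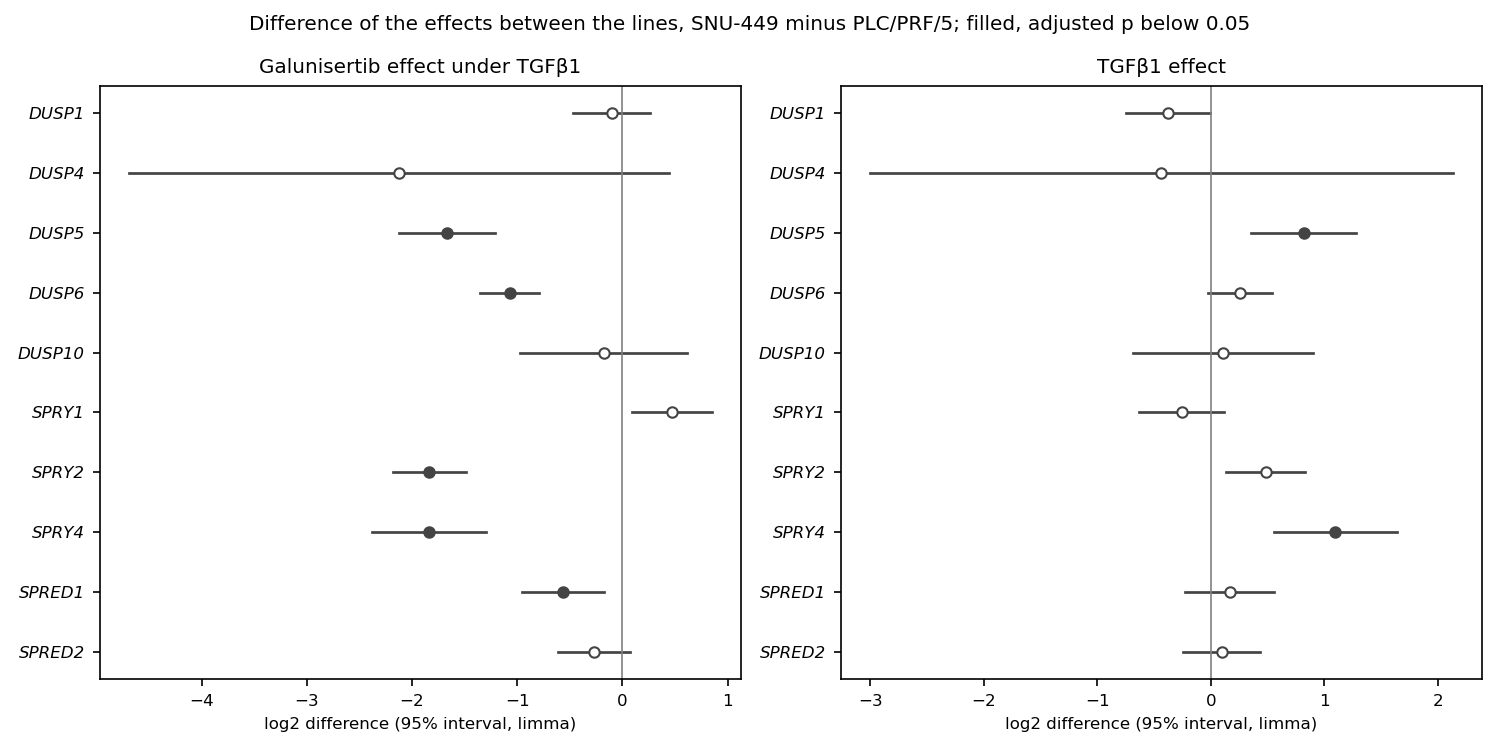
Difference between the lines, SNU-449 minus PLC/PRF/5 (x axis, log2 scale, with its 95% interval), in the effect of galunisertib under TGFβ1 (left) and of TGFβ1 (right) for each gene, with filled points where limma's adjusted p was below 0.05. The 5 filled genes lie left of 0 in the first panel, and *SPRY4* (1.10) and *DUSP5* (0.82) lie right of 0 in the second. The open point of *DUSP4* in the first panel (-2.12) includes its faint spot, and without that spot the difference was -0.33.

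Other genes of the pathway were counted in lists by role, which were also chosen with earlier results of these data known. Among 15 genes known to be induced by ERK, 13 were tested in each line. In PLC/PRF/5, 11 of the 13 rose when galunisertib was added to TGFβ1 and none fell, with a median of 0.79 beside 0.056 over all genes, 25.5% of which rose. *EGR1*, an immediate early transcription factor, rose by 2.32, *MYC* by 1.66 and *ETV5*, an ETS factor, by 1.41. In SNU-449, 3 rose and 4 fell, where 17.1% of all genes changed. *PHLDA1* rose by 2.11. *ETV1* rose by 1.00 with its brightest probe in SNU-449, from 0.41 to 1.41, and its other 3 probes gave 0.60 to 1.26. *FOSB*, an AP-1 subunit, was lower with both agents, at -2.16 with TGFβ1 and not well above background on any array with both, so that it was at least 3.58-fold lower, set against the lowest signal well above background on each array. With TGFβ1 against control, 6 of the 13 fell and 1 rose in PLC/PRF/5, with *EGR1* at -1.20, *ETV4* at -1.03 and *MYC* at -0.78, and 2 fell and 2 rose in SNU-449, beside 13.3% and 10.4% of all genes that changed. The effect of galunisertib under TGFβ1 differed between the lines for 11 of 14 of these genes, 8 of them more negative in SNU-449, beside 29.1% of all genes that differed, and it was -2.87 for *EGR1*.

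Of 7 other genes of the MAPK phosphatase, Sprouty and SPRED families 4 were tested in PLC/PRF/5, where none rose and 2 fell, *DUSP9* by 0.51 and *DUSP8* by 0.42, beside 38.9% of all genes that changed. Of 5 tested in SNU-449, 1 passed as higher with both agents, beside 17.1% of all genes. It was *DUSP2*, whose 3 arrays with TGFβ1 lay at the floor of the scale, so that no size is given. Among 8 other feedback genes of RAS and receptors, none rose and 2 fell in PLC/PRF/5 (*IL17RD* at -0.49 and *NF1* at -0.41), and in SNU-449 *LRIG1* rose by 1.20, *RASA1* fell by 0.91 and *IL17RD* by 0.47. *LRIG1* promotes the removal of ERBB receptors, and *RASA1* and *NF1* encode RAS GTPase-activating proteins.

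Of 22 receptor and ERK cascade genes tested in PLC/PRF/5, 4 rose and 6 fell, led by *FGFR2* (1.15), *PDGFRB* (-1.07) and *MET* (0.85), which is 45.5% changed beside 38.9% of all genes. Of 21 in SNU-449, 2 rose and 1 fell (*ERBB3* at 0.56, *MAP2K1* at -0.36 and *GRB2* at 0.29), which is 14.3% beside 17.1%. The *ERBB3* value comes from its brightest probe in SNU-449, and the probe brightest over both lines gave 1.18. Of 9 p38 and JNK cascade genes, 4 rose and 1 fell in PLC/PRF/5, and 2 rose in SNU-449, which is 55.6% and 22.2% beside the same shares of all genes. *MAP2K6* and *MAP2K3*, which encode the kinases that activate p38, rose by 1.81 and 1.08 in PLC/PRF/5 and by 1.97 and 1.09 in SNU-449. For none of the 9 did the effect differ between the lines at an adjusted p below 0.05 (limma), and for 1 of them the unadjusted p was below 0.05.

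**Figure D4:**
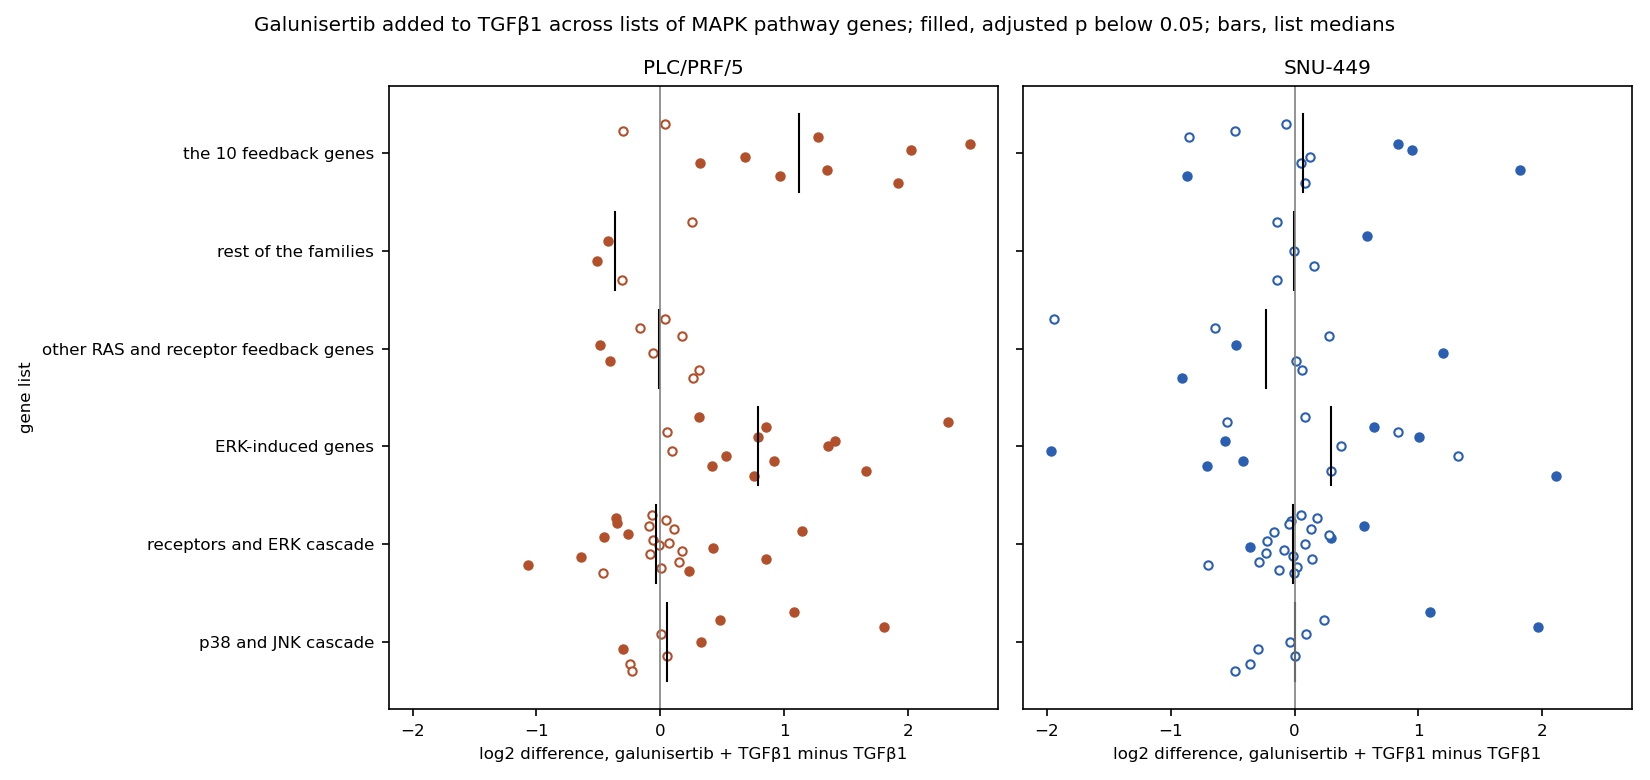
Change of single genes (x axis, log2 scale) when galunisertib was added to TGFβ1, by list of MAPK pathway genes, in PLC/PRF/5 (left) and SNU-449 (right), with filled points where limma's adjusted p was below 0.05 and a bar at the median of each list. The medians of the 10 feedback genes (1.12) and of the ERK-induced genes (0.79) lie right of 0 in PLC/PRF/5, and in SNU-449 they are 0.068 and 0.29.

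The genes differed in how closely they varied together. Over the 24 arrays, each centred on the mean of its line, *DUSP5* correlated most with *DUSP6* (Pearson r = 0.94), then with *SPRY1* (0.83), *SPRY4* and *SPRED1* (0.81 each) and *SPRED2* (0.71), and less with *SPRY2* (0.47), *DUSP4* (0.40), *DUSP1* (-0.32) and *DUSP10* (-0.36). The value of *DUSP4* includes its faint spot, and within PLC/PRF/5 its r with *DUSP5* was 0.96. Within PLC/PRF/5 *SPRY2* and *SPRY4* had r = 0.95 and 0.96 with *DUSP5* over 12 arrays, and within SNU-449 -0.55 and -0.020. These arrays share treatments and slides, so that the values describe the set and carry no test. Of 12871 genes well above background on all arrays, the 5 most like *DUSP5* over the same 24 arrays were *IGFLR1* (r = 0.97), *RGS2* (0.96), *GLRX* (0.96), *LGALS8* (0.96) and *WDR77* (0.96).

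**Figure D5:**
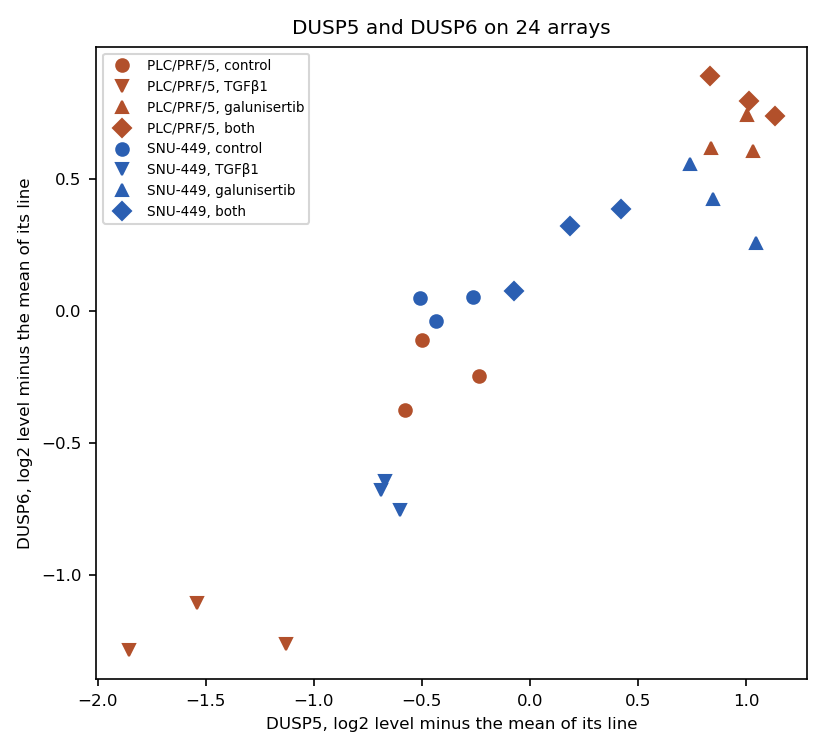
Level of *DUSP6* (y axis) against that of *DUSP5* (x axis) on 24 arrays, each as log2 units from the mean of its line, with colour for the line and shape for the condition. The arrays with TGFβ1 alone lie at the lower left of their line's points, and r was 0.94 over all arrays. Arrays with galunisertib, alone or with TGFβ1, lie above and to the right of their line's other arrays, replicate 1 of SNU-449 with both close to the controls.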

How the data were processed

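RNA of 2 HCC cell lines, 4 conditions and 3 independent cultures each was hybridised to 24 one-colour arrays. Per the file headers, the authors obtained the deposited intensity values with Agilent Feature Extraction 10.7.3.1, whose processed signal is background-subtracted. A deposited log2 table was made by the authors from the same arrays and is centred on each probe's median. Differences between arrays followed those of the scanner values (r = 0.999, slope 1.00 over 19267 probes), and it served as an alternative. The array's genome build is not given in the sources used here.

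Outlier spots (111 to 216 for each array) and control spots were left out, no spot was saturated, and the spots of a probe were averaged. Signals were divided by the 75th percentile of the array, set to a floor of 5.70% of it (the weakest signals well above background) and converted to log2. Accessions named 31104 of 58201 probes by RefSeq and 10719 by LNCipedia, and the brightest probe stood for a gene. A probe was kept if it was well above background in every array of at least 1 group of the fit. The test was limma 3.58.1 in R 4.3.3, over 12 arrays of a line or all 24 between lines, with Benjamini-Hochberg adjustment. The code was tested on simulated data. Replicates were independent cultures, no 2 arrays were identical (highest Spearman correlation 0.943), and their number, 3 for each group, limits the precision.

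Replicate numbers are slides. Same-numbered arrays deviated together for TGFβ1 against control in SNU-449 (r = 0.16, 0.18 and 0.13) and in PLC/PRF/5 (0.17, 0.27 and 0.29), and not by this measure in the other comparisons. The members, gene lists and motifs were chosen with earlier results of these data known. All members were named, and of the other lists at most 3 changed genes by size for each comparison, beside counts, and the 5 genes most like *DUSP5*. Alternatives were the scaling, filter, floor, probe choice, test, samples in the fit, replicate block, call rule, the authors' table and leaving out each array. Normexp with an offset of 50 used median signals in place of the planned mean signals, which were not used here, and leaving out the *DUSP4* spot was added after seeing the data.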

Additional observations from a re-analysis of the deposited data

Results flagged for a closer look

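These results were marked because the effect of a treatment differed between the lines by a test of the difference itself (limma over 24 arrays, SNU-449 minus PLC/PRF/5). For galunisertib under TGFβ1 the differences were -1.67 for *DUSP5*, -1.07 for *DUSP6*, -0.56 for *SPRED1*, -1.83 for *SPRY2* and -1.84 for *SPRY4*. For TGFβ1 alone they were 0.82 for *DUSP5* and 1.10 for *SPRY4*. The *SPRED1* difference did not pass without scaling between arrays (limma, adjusted p = 0.16), without the filter on dim probes (0.053), with the percentile over detected probes (0.12) or with normexp (0.054). For TGFβ1 alone the *DUSP5* difference did not pass after median scaling (limma, adjusted p = 0.17) or without scaling (0.48). The *SPRY4* difference for TGFβ1 alone did not pass without scaling (limma, adjusted p = 0.16). With its second probe *SPRY4* had -0.028 for galunisertib under TGFβ1 and 0.40 for TGFβ1 alone.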

How the results depend on the processing

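Of 1945 values of single members under the alternatives, 1853 kept their direction and their side of the threshold, 76 no longer passed, 16 passed newly and 0 called values changed sign; 64 uncalled values did. The counts for galunisertib added to TGFβ1 moved by over 1.5 times only under the limits of the study's figures, to 1 in SNU-449 and 5 in PLC/PRF/5. Under those limits the counts for TGFβ1 alone were 1 and 3. After scaling to the array median, TGFβ1 changed 1 member in SNU-449, where 710 of 16227 genes changed in all. Without scaling it changed 1 in PLC/PRF/5, where 496 of 16865 genes did. The TGFβ1 effect differed between the lines for 1 member after median scaling (439 of 18105 genes in all) or under the limits of the study's figures (413), and for 0 without scaling (443). TGFβ1 added to galunisertib changed 1 member in SNU-449 after median scaling (101 of 16227 genes in all), with the percentile over detected probes (309) and without scaling (143). It also changed 1 without the filter (211 of 32614 genes), under the limits of the study's figures (114 of 16227) and with a replicate block (197). It changed 0 with the ordinary t-test (0 of 16143 genes) and with only the compared groups in the fit (2 of 15459). In PLC/PRF/5 it changed 0 with normexp (1866 of 16865 genes in all), median scaling (161), no scaling (123) and the mean of a gene's probes (1325). It also changed 0 under the limits of the study's figures (49 of 16865 genes) and with the ordinary t-test (0 of 16803). The same held with only the compared groups (46 of 16279) and with all 24 arrays in the fit (1105 of 18105). Under normexp the *DUSP5* difference with galunisertib alone was 1.08 for PLC/PRF/5 and 0.89 for SNU-449. Leaving out 1 array gave 1 to 2 members in each line for TGFβ1 added to galunisertib and 1 to 2 for the line difference in the TGFβ1 effect, where *DUSP5* was lost without PLC/PRF/5 control 3, TGFβ1 1 or TGFβ1 3, or without SNU-449 control 3 or TGFβ1 1. The other counts moved by less than 1.5 times, to 7 for galunisertib added to TGFβ1 in PLC/PRF/5 and to 4 to 6 for its difference between the lines. The replicate block, which is the slide, changed no other count (2 and 5 members for TGFβ1, 4 and 8 for galunisertib added to TGFβ1). The other scalings shifted the members' changes by a median of -0.18 to 0.25 within the lines and of -0.34 to 0.37 between them, and no called direction turned. The cause of these shifts was not tested. Normexp on mean signals was not run. Only *DUSP10*, *DUSP4* and the second *SPRY1* probe were not well above background on some arrays.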
